A study of Mus musculus with 16 samples.

Results

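The Hox genes of the mouse were compared by cluster and by position between spinal cord and brain, with and without the Nova splicing regulators. A gene was included where the platform annotation pairs at least 1 probe set with its symbol alone and the symbol is Hoxa, Hoxb, Hoxc or Hoxd followed by a number. This rule gave 37 of 21634 genes, carried by 257 of 625534 probe sets. They were 10 genes of the Hoxa cluster, 10 of Hoxb, 9 of Hoxc and 8 of Hoxd. Hoxd4 was not analysed as a gene of its own, and the 13 probe sets paired with both Hoxd3 and Hoxd4 are described apart.

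RNA came from CD1 embryos at E18.5, late in gestation, and was read on Affymetrix exon arrays, which carry many short probe sets along each gene. The 4 groups were spinal cord of embryos lacking both Nova1 and Nova2 (dKO), wild type (WT) spinal cord, whole dKO brain and whole WT brain. Each group held 4 arrays, 1 for each biological replicate. Nova1 and Nova2 encode RNA-binding proteins of neurons and regulate which exons are spliced in. Both tissues hold many cell types, so fewer cells of a type and less RNA per cell cannot be told apart. The number of arrays limits the precision.

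Hox genes encode homeodomain transcription factors that give cells their position along the head to tail axis. In each cluster they lie in the order of their paralogue numbers, and genes with low numbers are expressed further towards the head than genes with high numbers. In the nervous system low-numbered genes reach into the hindbrain, middle numbers mark the cervical and thoracic cord, and higher numbers the lumbar and sacral cord. The forebrain and midbrain are known to lack most Hox expression, so a whole brain holds these transcripts mainly in its hindbrain.

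Promoters are shown for 4 genes on which the results turn. They are Hoxd3 with the largest genotype difference in spinal cord, Hoxa5 whose probe sets disagreed, and Hoxb8 and Hoxd10 with large tissue differences. RefSeq promoter windows on GRCm38.p6 matched 21 of the 37 genes by symbol. The 250 bases before the start are printed 5′ to 3′ on the strand of the gene, and capitals mark TTTAT on either strand, the core of sites bound by Cdx factors. The windows lie at chr2:74711743-74711992 (plus strand) for Hoxd3, chr6:52204588-52204837 (minus strand) for Hoxa5, chr11:96281655-96281904 (plus strand) for Hoxb8 and chr2:74691641-74691890 (plus strand) for Hoxd10.
Hoxd3: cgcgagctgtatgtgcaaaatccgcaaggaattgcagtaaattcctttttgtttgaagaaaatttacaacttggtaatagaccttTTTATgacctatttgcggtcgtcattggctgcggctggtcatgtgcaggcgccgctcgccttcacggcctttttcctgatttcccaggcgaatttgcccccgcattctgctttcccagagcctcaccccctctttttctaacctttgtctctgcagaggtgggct
Hoxa5: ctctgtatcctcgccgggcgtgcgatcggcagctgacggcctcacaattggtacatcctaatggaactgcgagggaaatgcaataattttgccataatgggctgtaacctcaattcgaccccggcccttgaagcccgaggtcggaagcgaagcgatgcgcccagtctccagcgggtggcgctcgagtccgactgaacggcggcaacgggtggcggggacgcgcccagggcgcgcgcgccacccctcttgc
Hoxb8: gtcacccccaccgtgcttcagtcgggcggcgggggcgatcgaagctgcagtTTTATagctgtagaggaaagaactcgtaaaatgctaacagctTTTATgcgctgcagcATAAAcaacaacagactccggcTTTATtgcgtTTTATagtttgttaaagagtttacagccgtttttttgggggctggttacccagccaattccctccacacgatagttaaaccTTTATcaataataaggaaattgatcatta
Hoxd10: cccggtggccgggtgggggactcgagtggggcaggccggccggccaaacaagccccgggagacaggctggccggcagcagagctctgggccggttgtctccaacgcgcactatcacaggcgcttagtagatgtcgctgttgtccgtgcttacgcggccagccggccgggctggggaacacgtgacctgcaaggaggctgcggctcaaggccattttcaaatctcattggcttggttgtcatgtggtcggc
The Hoxb8 window held 6 copies of TTTAT, the Hoxd3 window 1, and those of Hoxa5 and Hoxd10 held 0. TTTAT stood in 9 of 24 windows of Hox genes, Hoxd4 included, and in 37.3% of all 32851 promoter windows. TGATNNAT, a sequence bound by Hox proteins with Pbx and searched on both strands, stood in 4 of the 24 Hox windows and in 7.68% of all. It can overlap TTTAT where both of its free bases are T. The Hoxa5 window held 28 CG pairs and the Hoxd10 window 20, against medians of 12.5 over the Hox windows and 6 over all. A match of letters is a description of the sequence only.

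The level of a gene is the median of log2(intensity + 16) over its probe sets, and a difference between levels is a log2 difference, which understates the change of dim genes. Median intensity of all probe sets ran from 107.7 to 111.8 on dKO spinal cord arrays, from 99.5 to 116.2 on WT spinal cord arrays, from 76.5 to 78.8 on dKO brain arrays and from 72.3 to 82.9 on WT brain arrays. Nova1 stood at 5.78 to 5.96 in dKO and 10.98 to 11.25 in WT spinal cord, and at 4.58 to 5.29 in dKO and 9.98 to 10.71 in WT brain. Its level fell in dKO on every array of both tissues (limma, adjusted p = 1.059e-12 in spinal cord and 1.513e-12 in brain), and Nova2 was lower by a smaller amount (differences of -1.14 and -0.75, limma, adjusted p = 2.169e-05 and 0.005113). Several arrays stood apart. Skeletal muscle genes, from a list of 15, had mean levels of 6.63 to 8.45 on dKO and 6.86 to 9.13 on WT spinal cord arrays, highest on dKO 2 and 4 and WT 1 and 4. The brain arrays numbered 3 were low in telencephalon genes, at 7.96 in dKO and 7.01 in WT, where the other brain arrays lay between 8.88 and 9.12. Spinal cord arrays had 6.81 to 6.99 in dKO and 6.68 to 6.94 in WT on this list, so WT brain 3 lay close to them. WT brain 4 was low in Hox genes and is treated with the brain results.

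Most Hox genes could be measured in spinal cord and far fewer in brain. The background level of each array was set at the 95th percentile of 1022 olfactory receptor genes, which encode odorant receptors of the nose, and a gene counts as above background in a group where it passed that level on all 4 arrays. The background level was 7.10 to 7.26 in dKO spinal cord, 7.05 to 7.13 in WT spinal cord, 6.32 to 6.57 in dKO brain and 6.39 to 6.65 in WT brain. By this measure 29 of 37 genes were above background in dKO spinal cord, 28 in WT spinal cord, 13 in dKO brain and 2 in WT brain. The share of all genes above the same level is not given, so these counts describe the Hox genes without a comparison. The 13 genes in dKO brain were Hoxa2 to Hoxa5, Hoxb2 to Hoxb6, Hoxb8, Hoxc4, Hoxc5 and Hoxd3, nearly all from the low-numbered ends of the clusters. In WT brain only Hoxa3 and Hoxb3 passed on all arrays and 14 genes passed on some. WT brain 4 had only those 2 above background where the other 3 WT brain arrays had 12 to 15. Hoxb6 passed on 2 WT brain arrays and Hoxa7, Hoxc12 and Hoxd10 on 1 each, so these missed the level on other arrays as well. Hoxa13, Hoxb1, Hoxb13, Hoxd1, Hoxd12 and Hoxd13 were above background on no array of any group.

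**Figure D1:**
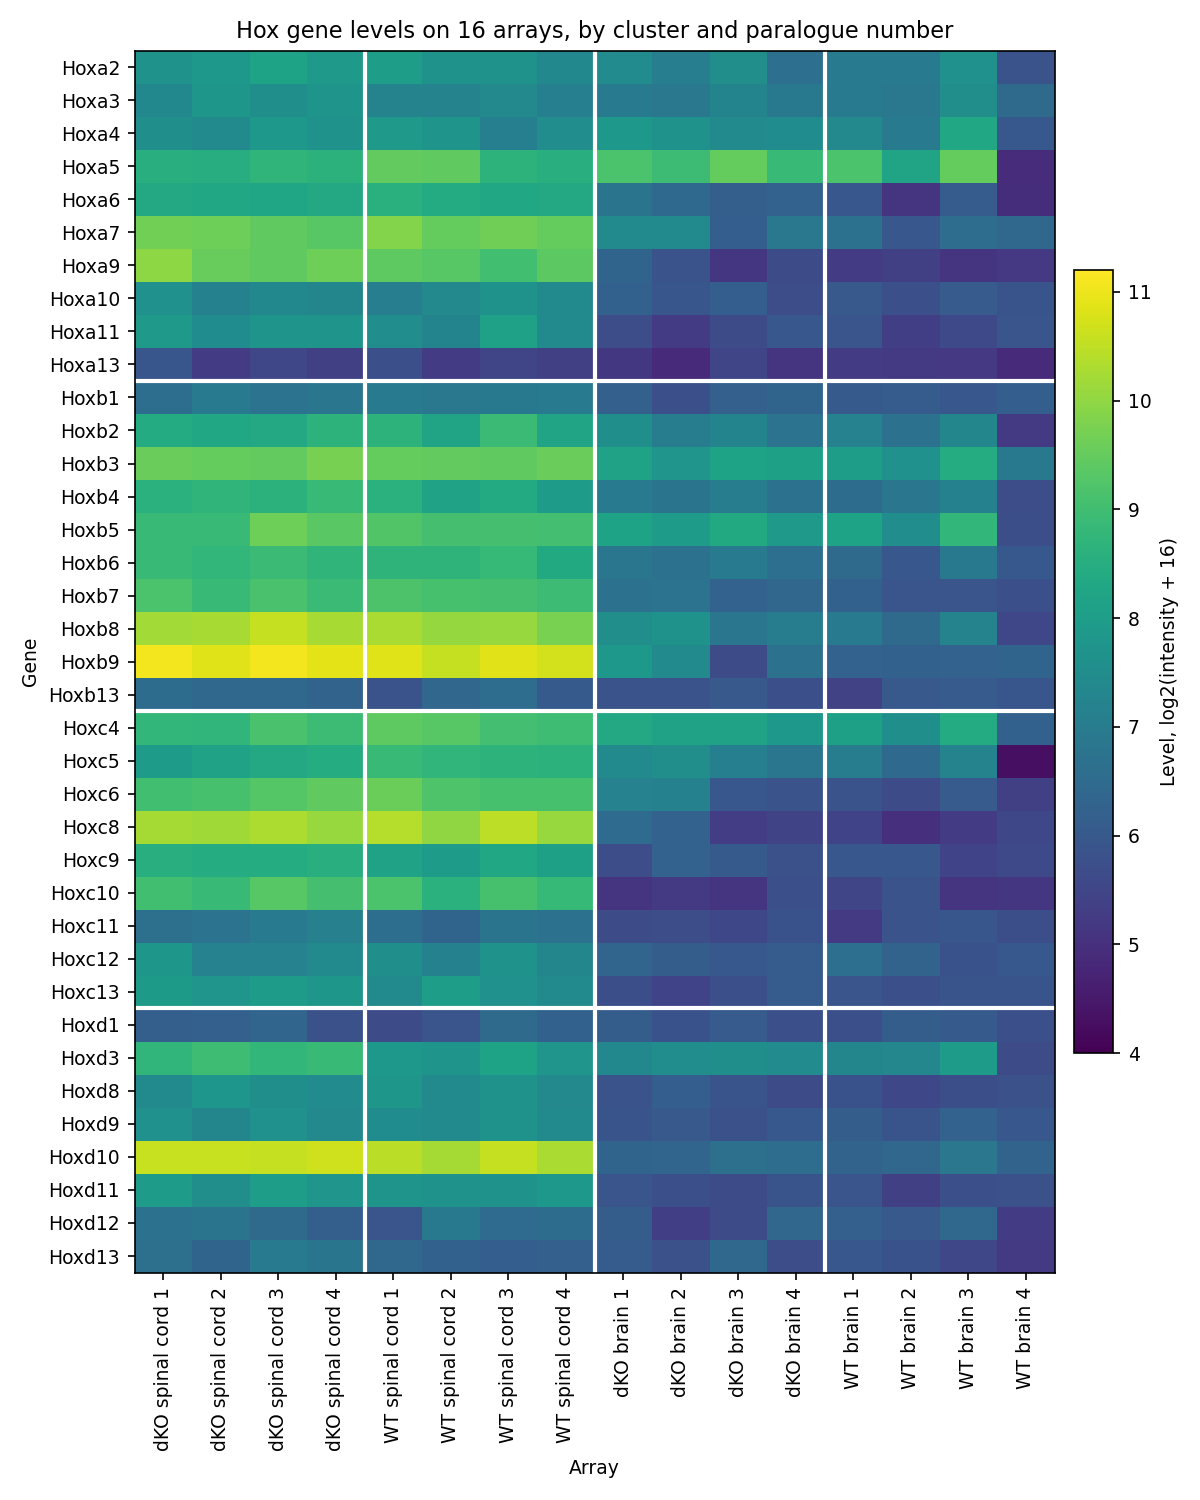
Gene level as log2(intensity + 16) of 37 Hox genes (rows, by cluster and paralogue number) on the 16 arrays (columns, by group), with colour giving the level. Middle paralogue numbers stand out in both spinal cord groups, and the column of WT brain 4 is dark among the low-numbered genes that the other brain arrays show.

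The tissue comparison asks how far the Hox code separates spinal cord from brain, in each genotype. Hox genes were higher in spinal cord in most cases and lower in none that passed the test. In dKO, 32 of 37 genes were higher in spinal cord than in brain (limma, Benjamini-Hochberg adjusted p under 0.05 over all genes tested), where 23.0% of all genes were. In WT, 30 of 37 were higher, where 21.3% of all genes were. The arrays of both tissues did not overlap for 31 higher genes in dKO, where 20.0% of all genes did so, and for 28 in WT, where 15.8% did. The median Hox difference was 1.52 in dKO and 1.74 in WT, beside medians of -0.02 and 0.03 over all genes. Without WT brain 4, which was low in Hox genes, the WT median was 1.44 and 28 genes were higher, with Hoxa2 (0.49, adjusted p = 0.09201) and Hoxd3 (0.34, adjusted p = 0.08644) no longer passing.

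The difference tended to grow along the clusters up to paralogue 10, unevenly among the low numbers, and was smaller beyond it. For the 13 genes with paralogue numbers 1 to 5, the median difference was 0.77 in dKO with 9 genes higher, and 1.08 in WT, also with 9 higher. For the 15 genes numbered 6 to 10, all 15 were higher in both genotypes, none overlapped between tissues, and the medians were 2.55 in dKO and 3.20 in WT. For the 9 genes numbered 11 to 13, 8 were higher in dKO with a median of 1.19, and 6 in WT with a median of 0.91. Over the 28 genes numbered 1 to 10, the Spearman correlation of paralogue number with the difference was 0.75 in dKO and 0.67 in WT, a description over genes that share the same arrays. In WT the median climbed to 2.89 for paralogue 6, 3.17 for 7, 3.49 for 8, 3.23 for 9 and 3.54 for 10, after 0.51 to 1.60 for paralogues 1 to 5, and dropped to 1.90, 0.88 and 0.50 for 11, 12 and 13. In dKO it was 1.34 for paralogue 3, 0.77 for 4 and 0.99 for 5, then 2.03 for 6 and 3.77 for 10. It was 2.02, 0.97 and 0.62 in dKO for 11, 12 and 13.

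**Figure D2:**
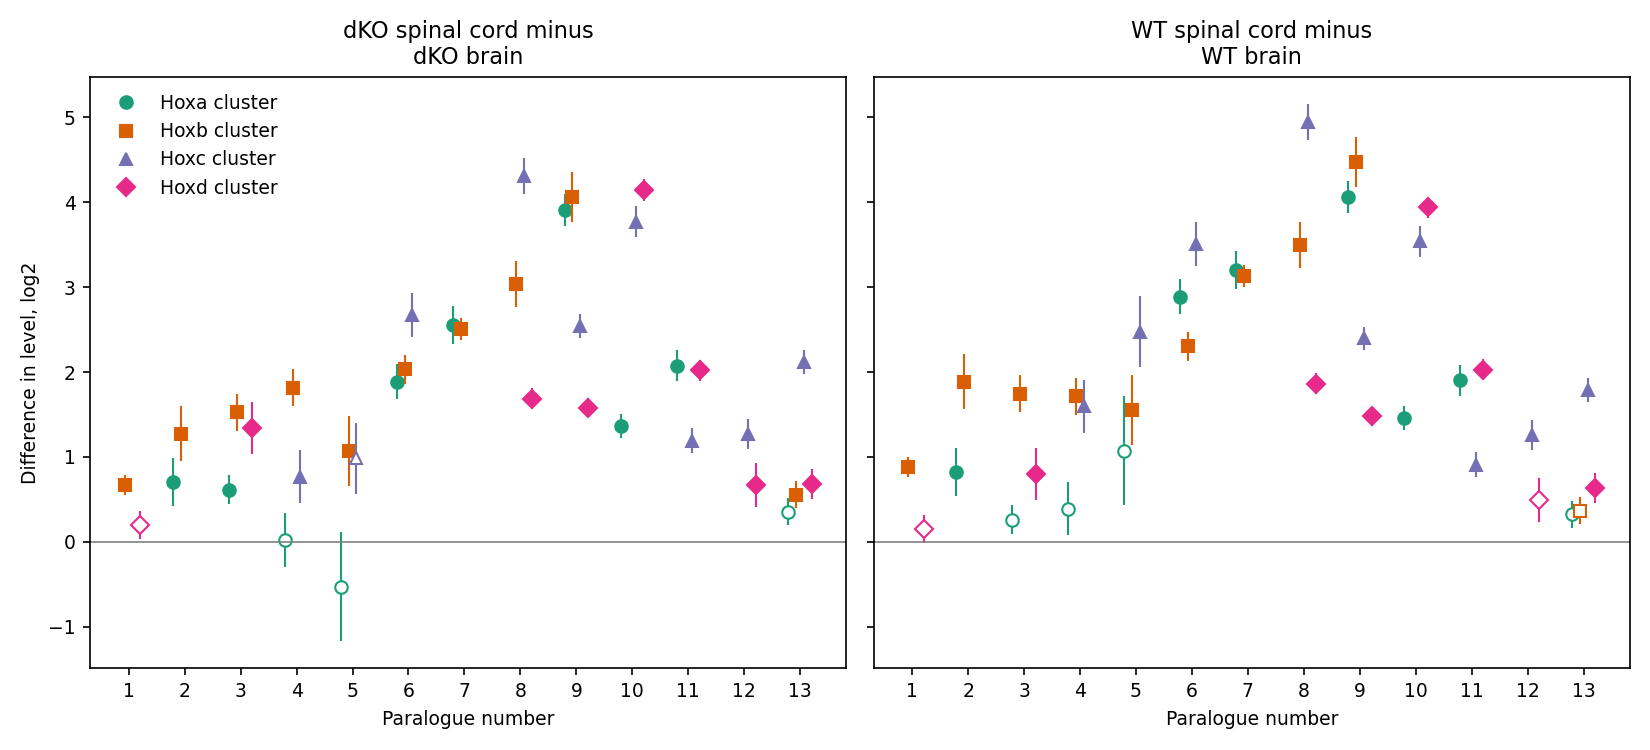
Difference in level between spinal cord and brain (log2, with standard errors) against paralogue number in dKO and WT, with a symbol for each cluster and filled symbols for genes that passed the test. Most of the highest points lie at paralogues 6 to 10 in both genotypes, with medians of 2.55 in dKO and 3.20 in WT, and the points are lower at 11 to 13.

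The largest differences belonged to Hoxc8, Hoxb9, Hoxd10, Hoxa9 and Hoxc10. Hoxc8, which patterns thoracic and brachial motor neurons, had levels of 10.22, 10.18, 10.32 and 10.08 on the dKO spinal cord arrays against 6.53, 6.26, 5.32 and 5.48 on the dKO brain arrays. In WT it had 10.40, 10.02, 10.49 and 10.10 in spinal cord against 5.43, 4.98, 5.26 and 5.55 in brain. All cord arrays lay far above all brain arrays, by 4.30 in dKO (SE 0.213, limma, adjusted p = 3.682e-10) and 4.94 in WT (SE 0.213, adjusted p = 5.608e-11). No WT brain array was above background, so the WT difference is given as at least 13.6-fold.

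Hoxb9, which acts in the thoracic cord and in the rib cage, had 11.07, 10.86, 11.06 and 10.90 in dKO spinal cord against 7.84, 7.45, 5.67 and 6.69 in dKO brain. It had 10.84, 10.58, 10.87 and 10.69 in WT spinal cord against 6.25, 6.24, 6.28 and 6.31 in WT brain. The cord arrays kept close together, while the dKO brain arrays spread by more than 2 log2 units with numbers 1 and 2 high. The differences were 4.06 in dKO and 4.48 in WT (limma, SE 0.293 each, adjusted p = 7.792e-08 and 2.047e-08), and the WT difference was at least 19.2-fold.

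Hoxd10, needed for lumbar motor neurons that supply the hindlimb, had 10.60, 10.59, 10.58 and 10.68 in dKO spinal cord against 6.33, 6.34, 6.65 and 6.58 in dKO brain. In WT it had 10.46, 10.22, 10.57 and 10.29 in spinal cord against 6.28, 6.37, 6.85 and 6.30 in brain. Both tissues were tight, and the differences of 4.14 in dKO (SE 0.128, limma, adjusted p = 8.902e-13) and 3.94 in WT (adjusted p = 2.11e-12) had the smallest adjusted p among the Hox genes. Hoxa9 differed by 3.90 in dKO, at least 9.08-fold, and by 4.06 in WT, at least 6.98-fold. Hoxc10, a lumbar gene like Hoxd10, differed by 3.77 in dKO, at least 6.08-fold, and by 3.54 in WT, at least 5.43-fold. Neither Hoxa9 nor Hoxc10 was above background on any brain array.

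The genes numbered 6 and 7, which act at cervical and thoracic levels, were all higher in spinal cord. Hoxa6 differed by 1.88 in dKO and 2.89 in WT, Hoxb6 by 2.03 and 2.30, and Hoxc6 by 2.67 and 3.51. Hoxa7 was higher by 2.55 and 3.20, and Hoxb7 by 2.5 and 3.13.

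Paralogues of 1 number showed unlike differences. Of paralogue 8, Hoxc8 differed by 4.30 in dKO and 4.94 in WT, Hoxb8 by 3.04 and 3.49, and Hoxd8 by 1.69 and 1.86. Of paralogue 10, Hoxa10 differed by 1.36 in dKO and 1.46 in WT, well under Hoxc10 and Hoxd10. Of paralogue 9, Hoxd9 differed by 1.58 and 1.48, and Hoxc9 by 2.54 and 2.40. Part of this spread lay within genes. The probe sets of Hoxa10 ran from -0.08 to 3.87 in dKO and those of Hoxd11 from -0.58 to 4.27, so a median over a gene's probe sets gives less than its most responsive probe sets. Differences between genes were not tested against each other.

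By cluster, all 10 Hoxb genes were higher in dKO spinal cord and 9 of 10 in WT, with Hoxb13 missing the test in WT (0.37, limma, adjusted p = 0.06428). All 9 Hoxc genes were higher in WT and 8 in dKO, where Hoxc5 missed it (0.99, adjusted p = 0.05515). Of Hoxd, 7 of 8 were higher in dKO and 6 of 8 in WT, and Hoxd1 missed the test in both, with differences of 0.20 and 0.15 that fell below 0 under quantile normalization. Of Hoxa, 7 of 10 were higher in dKO and 6 of 10 in WT. Hoxa4, Hoxa5 and Hoxa13 missed the test in both genotypes, and Hoxa3 and Hoxd12 in WT. These counts include genes that were above background on no array of the genotype, Hoxb1, Hoxb13, Hoxd12 and Hoxd13 in dKO and Hoxb1, Hoxc11 and Hoxd13 in WT, while the background level itself was higher on spinal cord than on brain arrays. Under quantile normalization Hoxb1 (0.22, adjusted p = 0.1195), Hoxb13 (0.10, adjusted p = 0.6371), Hoxd12 and Hoxd13 did not pass in dKO, nor Hoxd13 in WT.

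The genes at the front of the clusters, which act in hindbrain segments and the upper cord, differed less between the tissues and were measured in brain as well. Hoxb3 had 9.55, 9.51, 9.48 and 9.72 in dKO spinal cord against 8.15, 7.76, 8.17 and 8.09 in dKO brain, a difference of 1.52 (SE 0.217, limma, adjusted p = 5.416e-05). In WT it had 9.51, 9.46, 9.45 and 9.56 in spinal cord against 8.0, 7.64, 8.47 and 6.90 in brain, a difference of 1.74 (adjusted p = 2.067e-05). The tissues did not overlap in either genotype. Hoxb4 differed by 1.82 and 1.71, Hoxb2 by 1.28 and 1.89, and Hoxc4 by 0.77 and 1.60 in dKO and WT. Hoxb5 was higher by 1.07 and 1.56, Hoxa2 by 0.71 and 0.83, and Hoxd3 by 1.34 and 0.80.

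Hoxa4 and Hoxa5, which pattern the cervical region, did not pass the tissue test in the fit over all arrays. Hoxa4 had 7.59, 7.44, 7.84 and 7.68 in dKO spinal cord against 7.84, 7.68, 7.44 and 7.51 in dKO brain, and the arrays overlapped. Hoxa5 had 8.54, 8.49, 8.72 and 8.62 in dKO spinal cord against 9.16, 8.94, 9.50 and 8.88 in dKO brain. It was thus lower on every cord array, the only Hox gene separated that way where 30.9% of all genes were, but its difference of -0.53 did not pass (SE 0.639, limma, adjusted p = 0.5009). With only the dKO arrays in the fit it did pass (adjusted p = 0.007138). Its 5 probe sets disagreed, running from -0.83 to 3.09 in dKO and from 0.63 to 3.07 in WT, and the mean over probe sets gave 0.54 in dKO. In WT Hoxa5 had 9.48, 9.44, 8.65 and 8.52 in spinal cord against 9.16, 8.21, 9.50 and 4.92 in brain, a difference of 1.08 that became 0.07 without WT brain 4. In WT both genes passed with the mean over probe sets (Hoxa4 0.49, limma, adjusted p = 0.0455, and Hoxa5 1.41, adjusted p = 0.01053) and without WT brain 3 (0.77, adjusted p = 0.01719, and 1.59, adjusted p = 0.04571).

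The hindmost genes, which act in sacral and tail levels, were split. Hoxc13 had 7.93, 7.74, 7.99 and 7.81 in dKO spinal cord against 5.72, 5.46, 5.74 and 6.08 in dKO brain. In WT it had 7.42, 8.04, 7.65 and 7.43 against 5.90, 5.74, 5.86 and 5.88, and it was at least 2.65-fold higher in dKO and 2.22-fold higher in WT cord. Hoxa11, Hoxd11 and Hoxc12 were higher by 2.08, 2.02 and 1.27 in dKO and by 1.90, 2.03 and 1.26 in WT. Hoxc11 was higher by 1.19 and 0.91. Hoxa13, Hoxb13 and Hoxd13 never left background, and their differences of 0.33 to 0.68 over both genotypes have no fold.

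In brain, 1 array carried most of the genotype difference of the low-numbered Hox genes. The mean level of the Hox genes numbered 2 to 5 was 7.77, 7.58, 7.76 and 7.41 on the dKO brain arrays against 7.53, 7.20, 8.03 and 5.73 on the WT brain arrays. WT brain 4 lay below every other brain array. Hoxc5 had 7.43, 7.56, 7.10 and 6.84 in dKO brain against 7.03, 6.47, 7.21 and 4.28 in WT brain, and Hoxa5 had 4.92 on WT brain 4 where the other WT brain arrays had 8.21 to 9.50. The hindbrain list, 10 genes such as En2 and Tph2, had a mean of 7.25 on WT brain 4, where the other WT brain arrays had 7.32 to 7.69 and the dKO brain arrays 7.35 to 7.72. The list of dorsal root ganglion and Schwann genes stood at 6.60 there, where the other brain arrays had 6.95 to 7.17. The part of these lists in the Hox values was not tested.

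Genes numbered 6 to 9 varied among the dKO brain arrays instead. Their mean level was 6.71, 6.68, 6.02 and 6.19 in dKO brain against 6.09, 5.75, 6.07 and 5.70 in WT brain. The dKO arrays 1 and 2 were the highest of the 8. Hoxc6, a gene of the brachial cord, had 7.19, 7.17, 5.96 and 5.84 in dKO brain against 5.84, 5.69, 6.06 and 5.36 in WT brain, so the same arrays stood out.

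**Figure D3:**
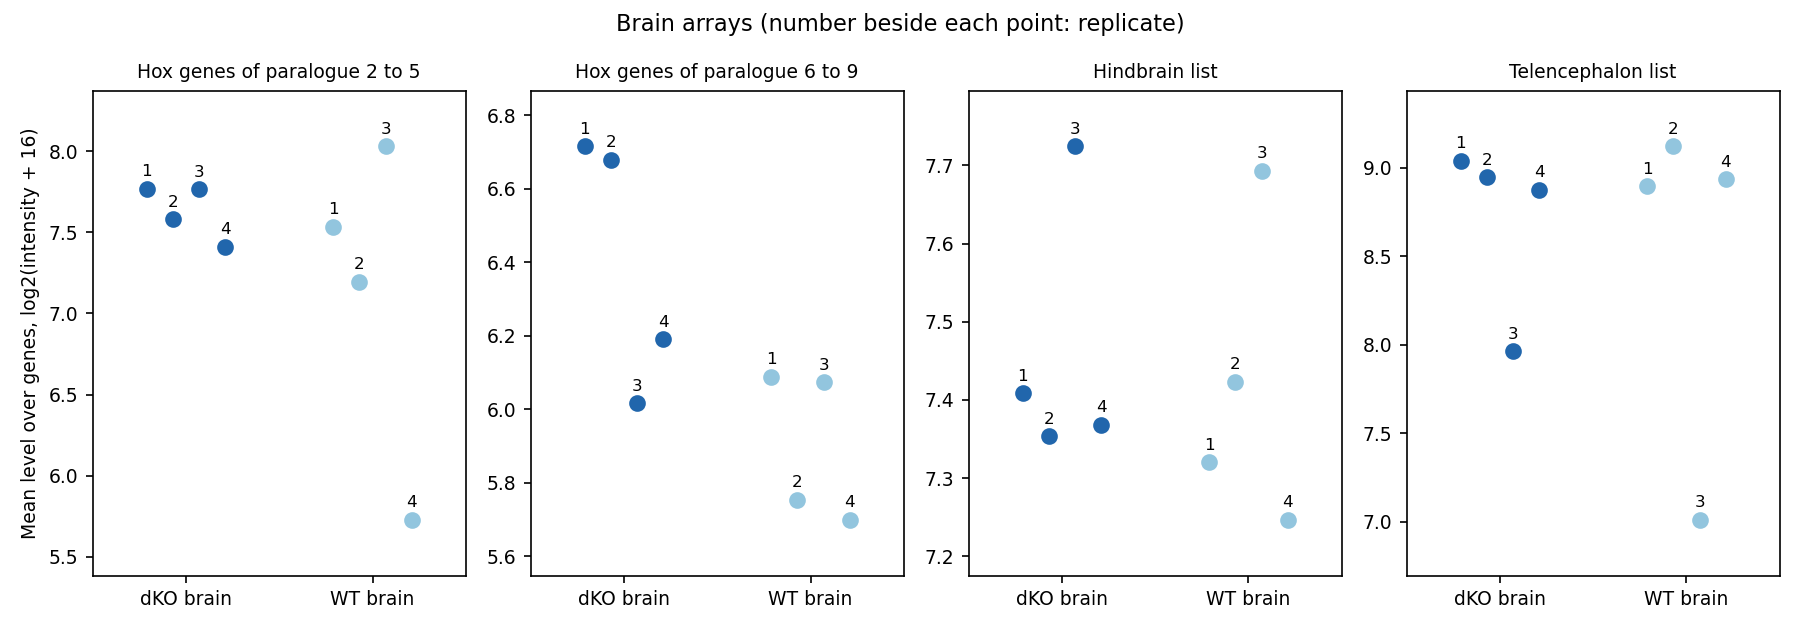
Mean level (log2(intensity + 16)) of Hox genes numbered 2 to 5 and 6 to 9 and of the hindbrain and telencephalon lists on the 8 brain arrays, 1 panel each, dKO left of WT, with the replicate number beside each point. WT brain 4 lies at 5.73 for numbers 2 to 5 where the other brain arrays lie from 7.20 to 8.03, and dKO brain 1 and 2 lie highest for numbers 6 to 9, at 6.71 and 6.68, and the arrays numbered 3 lie highest in the hindbrain panel and lowest in the telencephalon panel.

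The brain genotype comparison asks whether loss of Nova1 and Nova2 changes Hox levels. None of the 37 genes passed the test (limma, 0 called), where 0.180% of all genes did. At an unadjusted p under 0.05 there were 10 of 37, where 4.3% of all genes were. The median Hox difference was 0.32, beside 0.01 over all genes, and 31 of 37 differences were above 0. Without WT brain 4 the median was 0.06 and 25 were above 0. Hoxa6 and Hoxb7 were higher on all dKO arrays than on all WT arrays, 2 of 37 genes, where 1.67% of all genes were.

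Hoxb7, a gene of the cervical and thoracic cord, had 6.70, 6.74, 6.26 and 6.38 in dKO brain against 6.23, 5.89, 5.91 and 5.76 in WT brain. The difference was 0.57 (SE 0.128, limma, adjusted p = 0.1257), and 0.51 without WT brain 4. Hoxa6, its neighbour in position in another cluster, had 6.78, 6.46, 6.19 and 6.26 in dKO brain against 5.95, 5.10, 6.10 and 4.95 in WT brain. The difference was 0.90 (SE 0.205, adjusted p = 0.1462), and it passed without WT brain 3 (1.09, adjusted p = 0.02385). Both genes were above background on 2 dKO arrays and no WT array. The other genes with the smallest p were Hoxc6 (0.81), Hoxc8 (0.59), Hoxa9 (0.51) and Hoxb8 (0.73), with adjusted p between 0.6581 and 0.8927. Hoxb9, chosen after its values were seen, differed by 0.64 and passed without dKO brain 3 (1.05, adjusted p = 0.0243). Xist, the RNA of the inactive X of females, stood at 11.49 to 11.59 on the dKO brain arrays, at 11.42 and 11.78 on WT brain 2 and 3 and at 4.73 and 4.81 on WT brain 1 and 4, and its part in these values was not tested.

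In spinal cord the same question gave no gene that passed and 1 gene that stood out. None of the 37 genes passed the test (limma, 0 called), where 2.77% of all genes did. At an unadjusted p under 0.05 there were 4 of 37, where 15.6% of all genes were. The median Hox difference was 0.07, beside -0.02 over all genes, with 23 of 37 above 0. The genes whose dKO arrays all lay above the WT arrays were Hoxa9, Hoxb4, Hoxc9, Hoxd3 and Hoxd10, 5 of 37, where 3.19% of all genes were. Hoxc5 was the 1 gene with all dKO arrays lower, where 5.63% of all genes were.

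Hoxd3, which patterns the hindbrain and the upper neck vertebrae, had 8.75, 8.95, 8.77 and 8.86 in dKO spinal cord against 7.85, 7.73, 8.18 and 7.75 in WT spinal cord. The groups were far apart for their spread, and the difference was 0.96 (SE 0.303, limma, adjusted p = 0.1077). All 12 probe sets of the gene were higher in dKO, by 0.35 to 1.23, and 10 of them did not overlap between genotypes. The shared spread of this fit includes the brain, where Hoxd3 had 5.69 on WT brain 4 and 7.32 to 7.97 on the other WT arrays. With only the spinal cord arrays the adjusted p was 0.004397, with WT brain 4 left out of the spread 0.001496, and after quantile normalization the difference was 1.10 (adjusted p = 0.0382). Without the 4 spinal cord arrays richest in muscle genes, which leaves 2 arrays per genotype, it was 0.81 (adjusted p = 0.5756). Hoxd3 passed in only 4 of 19 alternatives, with adjusted p between 0.001496 and 0.5756 and differences between 0.81 and 1.10. It missed the test with the other pseudocount (limma, adjusted p = 0.2184), the mean over probe sets (0.07128) and the replicate block on all arrays (0.08961).

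The 13 probe sets shared by Hoxd3 and Hoxd4 had a median level of 9.0, 9.13, 8.97 and 9.07 in dKO spinal cord against 8.53, 8.46, 8.49 and 8.27 in WT spinal cord. They were higher in dKO by 0.60, 12 of 13 in that direction, and 8 did not overlap. The members of the same cluster on either side, Hoxd8 and Hoxd1, differed by -0.02 and 0.07. In brain Hoxd3 differed by 0.42 between genotypes (adjusted p = 0.9999), and the difference between its changes in cord and brain was 0.54 (adjusted p = 0.8468).

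**Figure D4:**
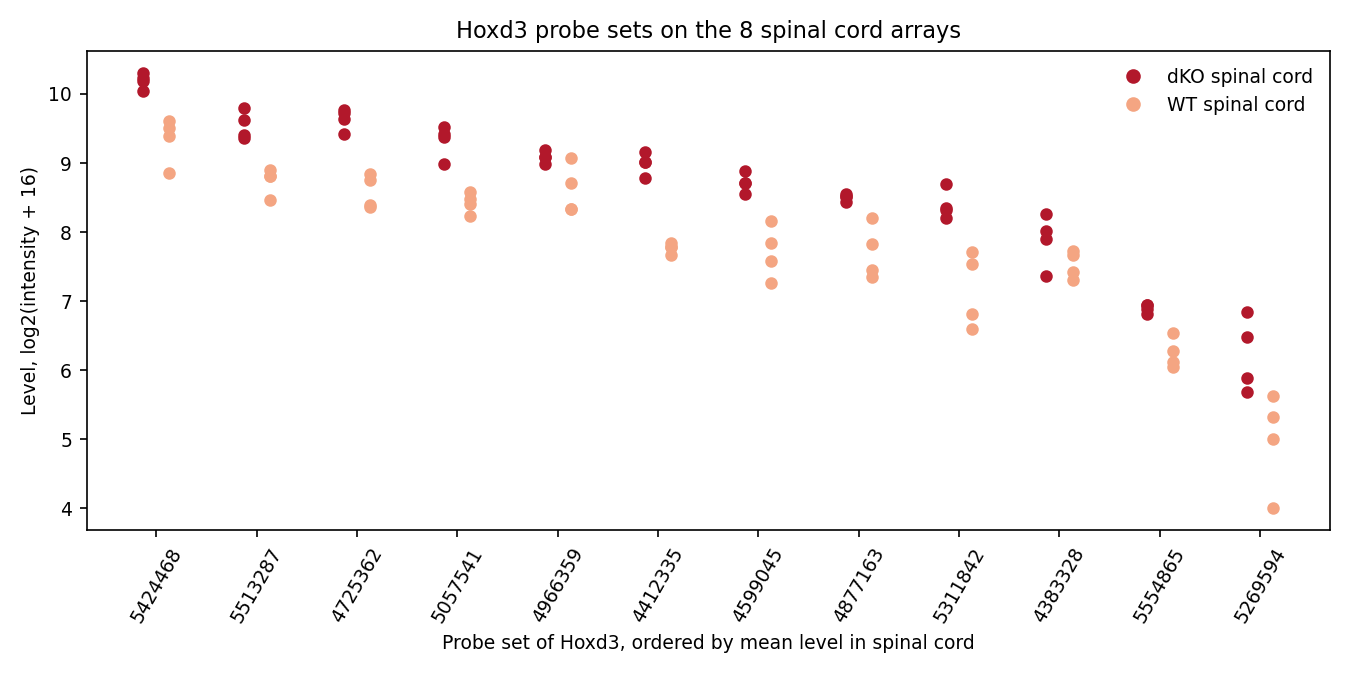
Level of each of the 12 Hoxd3 probe sets (log2(intensity + 16)) in spinal cord, with 4 dKO and 4 WT arrays for each. The dKO points lie above the WT points in all 12 means, and for 10 probe sets the arrays do not overlap.

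The other Hox genes moved by less. Hoxc9, a thoracic gene that represses limb motor neuron fates, had 8.52, 8.46, 8.46 and 8.52 in dKO spinal cord against 8.15, 7.99, 8.30 and 8.09 in WT spinal cord. Its 0.36 did not pass (SE 0.137, limma, adjusted p = 0.1989), and the mean over probe sets gave 0.43 (adjusted p = 0.01514). Hoxb4 had 8.60, 8.71, 8.62 and 8.86 against 8.59, 8.15, 8.41 and 7.94 in WT, a difference of 0.42 (adjusted p = 0.3757). The remaining genes with the smallest p were Hoxd13 (0.42), Hoxa3 (0.38) and Hoxc11 (0.29), with adjusted p of 0.2469 to 0.3576. Hoxc5, chosen after its values were seen, had 7.96, 8.13, 8.33 and 8.46 in dKO spinal cord against 8.86, 8.74, 8.66 and 8.62 in WT spinal cord. All 5 of its probe sets were lower in dKO, and its difference was -0.50 (adjusted p = 0.6184). Hoxc5 and Hoxd3 thus stood on opposite sides, while the thoracic genes Hoxc8 and Hoxb7 differed by -0.05 each.

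**Figure D5:**
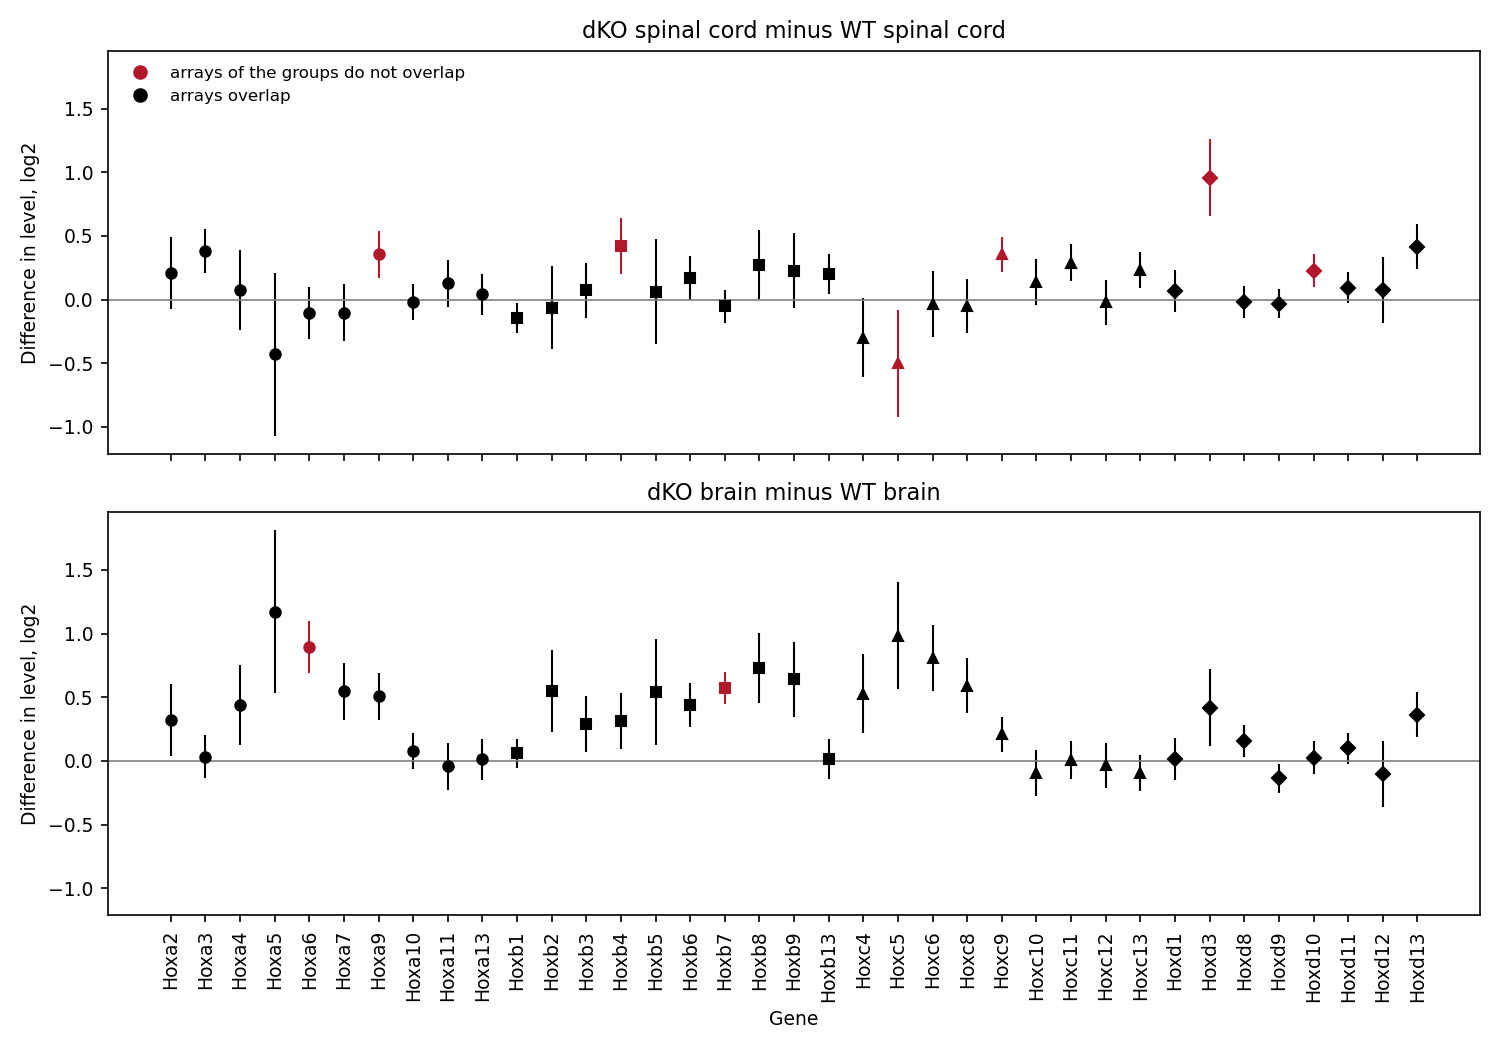
Difference in level between dKO and WT (log2) for each Hox gene, ordered by cluster and then by paralogue number, in spinal cord and in brain, with a symbol for each cluster and red where the arrays of both genotypes do not overlap. In spinal cord Hoxd3 lies highest at 0.96 and most genes lie near 0. In brain the genes numbered 1 to 8 lie above 0, and the median Hox difference is 0.32, or 0.06 without WT brain 4.

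The change on loss of Nova differed between the tissues for none of the Hox genes (limma, 0 of 37 called), where 0.00462% of all genes passed. At an unadjusted p under 0.05 there were 5, where 7.03% of all genes were. The median difference between the change in spinal cord and that in brain was -0.12, or 0.07 without WT brain 4, and the smallest adjusted p was 0.4957, for Hoxa6 (-1.0) and Hoxb7 (-0.62). The same test asks whether the tissue difference was equal in both genotypes.

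Since Nova proteins act on splicing, each Hox probe set was also read relative to its gene on the spinal cord arrays. This exon index is the log2 value of a probe set less that of its gene, array by array. It covered 167 probe sets of 23 Hox genes. None passed the test (limma, 0 called), where 0.114% of the 185825 probe sets tested did. At an unadjusted p under 0.05 there were 24 of 167, where 9.52% of all were. The smallest p belonged to probe set 4578398 of Hoxa5, with an index of 1.48, 1.71, 1.53 and 1.58 in dKO against 0.67, 0.51, 0.75 and 1.08 in WT. The arrays did not overlap, and the difference was 0.82 (SE 0.128, adjusted p = 0.06454). It passed without WT spinal cord 4 (adjusted p = 0.035).

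Of 8 TALE cofactors, homeodomain proteins that bind DNA with Hox proteins, 2 were higher and 3 lower in dKO spinal cord than in dKO brain, and 3 were higher and 3 lower in WT. Over all genes 23.0% were higher and 30.5% lower in dKO, and 21.3% higher and 25.0% lower in WT, so the cofactor counts lay near those shares. Meis1 was higher by 0.62 in dKO and 0.51 in WT, and Pbx2 lower, with differences of -0.78 and -0.60. Of 14 genes of retinoic acid signalling and the Cdx family, which set Hox domains early in development, 4 were higher and 1 lower in dKO and 5 higher and 2 lower in WT. No TALE cofactor differed between genotypes. Aldh1a2, which makes retinoic acid and is present in motor neurons and meninges, was the 1 gene of all lists that passed a genotype test. It passed in spinal cord, as 1 of 14 genes of its list, where 2.77% of all genes did. This count is given as a description and not as a result about the lists. The level of Aldh1a2 was 9.04 to 9.38 in dKO spinal cord against 8.36 to 8.91 in WT spinal cord, a difference of 0.49 (SE 0.123, limma, adjusted p = 0.03962). It passed in 6 of 19 alternatives, with adjusted p between 0.0154 and 0.5265, and was 0.25 without the arrays richest in muscle genes.

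Marker lists are read against the same shares, 23.0% higher and 30.5% lower over all genes in dKO and 21.3% higher and 25.0% lower in WT. Of 13 telencephalon genes, 12 were lower in spinal cord in both genotypes and none was higher. Of 10 hindbrain genes, 6 were lower in dKO, and 6 lower and 1 higher in WT. Motor neuron genes gave 5 of 8 higher and 2 lower in both genotypes, and dorsal root ganglion and Schwann genes 6 of 8 higher in both. Skeletal muscle genes were higher in 10 of 15 in dKO and 14 of 15 in WT, cartilage and bone genes in 3 of 9 in both with 1 lower in dKO. Of 7 fibroblast and meninges genes, 4 were lower in dKO and 3 in WT. Muscle and ganglion genes thus moved with the tissue in the same direction as the Hox genes, and cells of those tissues are known to express Hox genes too. Their part in the Hox differences was not tested. Without the 4 spinal cord arrays richest in muscle genes, 28 of 37 Hox genes were higher in spinal cord in dKO and 27 in WT, with medians of 1.5 and 1.72. The spinal cord arrays kept still had ganglion list means of 7.94 and 7.75 in dKO and 7.74 and 7.81 in WT. The brain arrays had 7.02 to 7.14 in dKO and 6.60 to 7.17 in WT.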

How the data were processed

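Exon arrays of total RNA from dKO and WT spinal cord and brain were used, 16 arrays in 4 groups taken from the labels. The deposited values are linear intensities per probe set, for which the submitters' processing notes name PLIER, Affymetrix Power Tools and build mm8. No tool version or setting is given in the sources used here. The platform annotation pairs 303629 probe sets with 1 symbol, 5892 with several, and 316013 are unnamed here. Deposited intensities were taken as log2(intensity + 16), and a gene's level was the median over all its probe sets with 1 symbol, with no filter on low values. The means of the 4 groups came from limma 3.58.1 (lmFit, then eBayes; R 4.3.3, data.table with version 1.17.8) on all 16 arrays, two-sided, with Benjamini-Hochberg adjustment over 21634 genes at 0.05. Standard errors are the moderated ones of that fit. The exon index used the 8 spinal cord arrays and genes that kept 5 or more probe sets over the median probe set. Scripts were tested on simulated data. There the spinal cord genotype fit called 33 of 100 changes of 0.5 and 90 of 100 changes of 1. The exon index called 30 of 100 changes of 1 and 85 of 100 changes of 2, so small changes can be missed.

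All Hox genes are named in the tissue comparison, and the 6 with the smallest p in each genotype comparison; others are marked. The members and the 11 gene lists (TALE cofactors, retinoic acid and Cdx, Polycomb and trithorax, neighbours of the Hox clusters, hindbrain, telencephalon, motor neuron, cartilage and bone, skeletal muscle, fibroblast and meninges, dorsal root ganglion and Schwann) were chosen with earlier results of these data known. p-values measure the spread between embryos or samples as labelled. Groups share replicate numbers. Deviations of same-numbered brain arrays from their group means correlated at 0.107 to 0.267 between the genotypes, so these arrays varied together weakly. The labels do not say what the numbers mark, and correlations of arrays with unlike numbers are not given, so a pairing is not established. The main fit did not use the numbers. In spinal cord the deviations of same-numbered arrays correlated at -0.0389 to 0.00859, and between tissues at -0.115 to 0.026, so there they did not vary together. In 5 of 8 cases brain and spinal cord arrays of the same number differed in Xist. Alternatives were another pseudocount, quantile normalization, median centring, the mean over probe sets, a floor, a mean-variance trend, only the arrays compared, a replicate block, and leaving out arrays.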

Additional observations from a re-analysis of the deposited data

Results flagged for a closer look

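In 2 of 148 tests of a gene within a group of 4 arrays, 1 array lay far from the other 3 by Dixon's test, where chance gives about 7.4. Hoxb8 stood at 10.57 on dKO spinal cord 3, above 10.21 to 10.27 on the other dKO spinal cord arrays. Hoxd10 stood at 6.85 on WT brain 3, above 6.28 to 6.37 on the other WT brain arrays.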

How the results depend on the processing

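The count of Hox genes higher in spinal cord held within 1.5 times under all alternatives, from 25 to 33 in dKO and from 26 to 34 in WT. Both lowest counts came with the floor, where only 28 Hox genes were tested. Where all 37 were tested the lowest counts were 26 in dKO and 27 in WT, with quantile normalization. In dKO the fit on only the arrays compared called 34 genes, 33 higher and 1, Hoxa5, lower. Leaving out 1 array at a time gave 28 to 31 in dKO and 28 to 34 in WT, 0 to 1 for the brain genotype comparison, 0 to 0 for the spinal cord genotype comparison and for the difference between tissues, and 0 to 1 for the exon index. Of the genes called, 21 of 32 in dKO and 22 of 30 in WT were tested and called under every alternative, and 3 and 4 more were called under all but the floor, where they were not tested. Those lost under some were Hoxa2, Hoxa3, Hoxb1, Hoxb5, Hoxb13, Hoxc4, Hoxd12 and Hoxd13 in dKO, and Hoxa2, Hoxb5, Hoxd3 and Hoxd13 in WT. Genes gained under some were Hoxa5, Hoxa13 and Hoxc5 in dKO, and Hoxa3, Hoxa4, Hoxa5, Hoxb13 and Hoxd12 in WT. With the replicate number as a block the counts were 33 in dKO and 31 in WT for the tissues. They were 0 for both genotype comparisons, for the difference between tissues and for the exon index. In the fits of gene levels this block gave brain and spinal cord arrays of a number 1 shared effect. A block on the brain arrays alone was not run, so the bearing of their numbers on the brain genotype comparison was not tested. For spinal cord genotype 1 gene was called under quantile normalization, with only the spinal cord arrays, with those arrays and the replicate block, and with WT brain 4 left out of the spread, Hoxd3 each time, and 1 with the mean over probe sets, Hoxc9. For brain genotype 1 gene, Hoxa6, was called without WT brain 3 and without both arrays numbered 3 (1.17, limma, adjusted p = 0.03122), and 1, Hoxb9, without dKO brain 3. On the exon index 1 probe set, of Hoxa5, was called with a mean-variance trend and without WT spinal cord 4.

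Directions of the tissue difference turned for Hoxa3, Hoxa4, Hoxa5 and Hoxd1. Quantile normalization, which moved the median of all genes to -0.21 in dKO and -0.15 in WT, gave Hoxa4 -0.24 and Hoxd1 -0.25 in dKO and Hoxa3 -0.069 and Hoxd1 -0.21 in WT. The mean over probe sets gave Hoxa5 0.54 and Hoxd1 -0.016 in dKO. With 1 array left out at a time Hoxa4 ran from -0.045 to 0.097 in dKO, below 0 without dKO spinal cord 3, dKO brain 3 or dKO brain 4, and it was -0.036 without both arrays numbered 3. In WT it ran from -0.00066, without WT brain 4, to 0.77. The cause was not tested. The settings that leave out arrays by their telencephalon or muscle genes or WT brain 4 from the spread, and the block with only spinal cord arrays, were chosen after seeing the data. Brain levels below background limit all folds, and lists of other genes were not recomputed under quantile normalization.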

Other observations

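Hoxa11as, the antisense RNA of the Hoxa11 locus, had a median level of 6.88, 7.24, 7.06 and 7.03 in dKO spinal cord and 5.66, 5.22, 5.26 and 5.43 in dKO brain. In WT it had 6.46, 7.10, 6.93 and 6.78 in spinal cord and 4.72, 5.84, 5.55 and 5.35 in brain, so the tissues did not overlap in either genotype. It was above background on 1 spinal cord array of each genotype and on no brain array, so it was mostly not measured above background and no fold is given. Hoxa11 itself was higher in spinal cord too, and its probe sets and those of the antisense RNA have separate symbols.

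Of 10 genes that lie beside the Hox clusters, 2 were higher and 4 lower in dKO spinal cord than in dKO brain, and 4 were higher and 4 lower in WT. Over all genes 23.0% were higher and 30.5% lower in dKO, and 21.3% higher and 25.0% lower in WT, so these counts of few genes are given as a description. Evx2, a homeobox gene at the hindmost end of the Hoxd cluster, was higher by 0.45 in dKO and 0.39 in WT (limma, adjusted p = 0.001116 and 0.003476). Mtx2, at the other side of the same cluster, was lower, with differences of -0.71 and -0.65. Of 17 Polycomb and trithorax genes, whose proteins keep Hox genes silent or active, 10 were lower in spinal cord in each genotype, beside the 30.5% in dKO and 25.0% in WT over all genes, and none was higher. Suz12 and Ezh2, of the complex that methylates histone H3 at silent genes, differed by -0.51 and -0.76 in dKO and by -0.83 and -1.16 in WT. No gene of either list passed a genotype test in brain or spinal cord.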
